A study of Mus musculus with 12 samples.

Results

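Podocyte and slit diaphragm genes were followed across 4 groups of mouse kidneys by bulk RNA sequencing. The members are 8 genes chosen by name: Nphs1, Ptpro, Magi2, Plce1, Wt1, Podxl, Synpo and Cd2ap, of the 55487 gene identifiers in the count table. The groups were Ctrl, PT-KO, Ctrl+I/R and PT-KO+I/R, with 3 libraries each. Ctrl mice carry the floxed allele of ALR (augmenter of liver regeneration, gene Gfer) on both chromosomes without Cre, and the labels call them WT. PT-KO mice carry the same floxed allele with Ggt1-Cre, a transgene driven by a proximal tubule promoter, and the labels call them ALR knockdown. The deletion was therefore aimed at the proximal tubule and not at podocytes. All mice were young adults of C57BL/6 background. Ctrl and PT-KO kidneys were sham operated. The I/R kidneys went through 22 min of bilateral ischemia, in which both renal pedicles are clamped, and 24 h of reperfusion. The tissue label is kidney cortex, and each library was made from total RNA, so glomeruli are a small part of each sample.

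Podocytes are the epithelial cells that cover the outside of the glomerular capillaries. Their interlocking foot processes are joined by the slit diaphragm, a thin protein sheet that, with the glomerular basement membrane, keeps plasma proteins out of the urine. Nephrin, made from Nphs1, spans the slit, and its tail is held by adaptor proteins that tie it to the actin cytoskeleton. Loss of nephrin, or of its anchors, is a known cause of nephrotic syndrome.

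Library totals ran from 12165089 to 23123693 counts, and 20416 to 22210 genes had a count in a library. All 8 members passed the filter on low counts in every comparison, with 85 to 10477 counts per library. Counting error adds to the spread between kidneys for the members with the fewest counts. In PT-KO+I/R these were Magi2, Wt1, Plce1, Nphs1 and Ptpro. Ctrl libraries 1 and 2 stood apart: they held 22402 and 19755 counts of Xist, the RNA of the inactive X chromosome, and 0 counts of the Y-linked genes Ddx3y, Eif2s3y, Kdm5d and Uty. The other 10 libraries held at most 11 counts of Xist and at least 3109 counts over these 4 genes. Both sexes occurred in Ctrl alone, so every difference from Ctrl mixes treatment or genotype with sex. The only male Ctrl library, library 3, comes from a column that matches no sample title. The comparisons of PT-KO+I/R with PT-KO and with Ctrl+I/R were made between male libraries and are given first. Gfer itself measured 9.97, 17.1 and 15.0 CPM (a gene's counts relative to the scaled size of its library) in PT-KO against 12.7, 11.4 and 14.4 CPM in Ctrl, and 21.6 to 22.8 CPM in PT-KO+I/R against 15.3 to 20.0 CPM in Ctrl+I/R. Mean Gfer was thus not lower in the groups labelled PT-KO, whereas the paper reports reduced ALR expression in the kidneys of PT-KO mice. Counts of single exons were not examined. The deletion was therefore not tested here, and the libraries are named as labelled.

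Of the members, 5 have a sequence in the RefSeq promoter table of GRCm38.p6: Nphs1, Ptpro, Magi2, Cd2ap and Plce1. The 250 bases before each start were searched on both strands for GTGGGNG, the core that WT1 and EGR factors bind, where N is any base. Matches are shown for Nphs1, Ptpro and Magi2, the 3 members that were lower in PT-KO+I/R than in both other male groups, and for Cd2ap, the member that was higher. Each is given on the strand of the match, with the 7 bases of the motif in capitals and 10 bases on either side.
Nphs1, chr7:30459823-30459849, plus strand: gtacctgtgaGTGGGTGagagggaggt
Ptpro, chr6:137252254-137252280, plus strand: gcaggccctgGTGGGAGgacccaagat
Magi2, chr5:19226917-19226943, minus strand: agcgggtggcGTGGGGGtggggaggag
Cd2ap, chr17:42876450-42876476, plus strand: gcaggcggggGTGGGAGggggggtgga

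The matches ended 219 bases before the start in Nphs1, 29 in Ptpro, 113 in Magi2 and 36 in Cd2ap. The windows of Nphs1 and Cd2ap overlap exons of other annotated transcripts over 250 and 241 bases, so no longer stretch of them is shown. In Plce1 neither of the motifs searched was found, and no match overlapped another motif. The letters are common: GTGGGNG stood in 28.1% of the 32851 promoter windows of the table searched the same way. A match was thus present in members that were lower and in the member that was higher, and none of these sites was tested for binding. The LMX1B core TAATTA, present in 4.84% of windows, was found once, before a second start of Magi2. The longer stretches before the first exons of Ptpro and Magi2 are shown because both genes fell, with the same match in capitals as it reads on the plus strand, which for Magi2 is the complement of the motif.
Ptpro, chr6:137252049-137252298, plus strand: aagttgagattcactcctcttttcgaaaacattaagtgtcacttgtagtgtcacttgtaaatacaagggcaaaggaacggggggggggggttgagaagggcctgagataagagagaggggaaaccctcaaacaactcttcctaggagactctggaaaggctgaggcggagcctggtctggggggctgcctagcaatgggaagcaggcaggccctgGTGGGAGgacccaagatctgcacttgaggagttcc
Magi2, chr5:19226796-19227035, plus strand: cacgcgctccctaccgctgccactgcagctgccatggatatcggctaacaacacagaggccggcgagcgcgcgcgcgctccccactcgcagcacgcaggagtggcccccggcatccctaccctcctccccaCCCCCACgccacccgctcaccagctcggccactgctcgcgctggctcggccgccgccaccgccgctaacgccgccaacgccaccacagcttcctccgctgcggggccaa

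The Ptpro window, shown whole, had 53.6% G and C, and the Magi2 window, shown in part, had 72.0%. In the gene models of GENCODE M21 on GRCm38, Nphs1 spans chr7:30458315-30487223, Ptpro chr6:137252319-137463233, Magi2 chr5:19227036-20704792 and Plce1 chr19:38481109-38785030, all on the plus strand. Wt1 spans chr2:105126529-105173616 on the plus strand, and Podxl chr6:31519488-31563981 and Cd2ap chr17:42792951-42876665 lie on the minus strand. Synpo is on chromosome 18. Nphs1 shares 597 exon bases with the antisense gene Nphs1os and 183 with the pseudogene Rps12-ps4, but these had 2 and 166 counts over all libraries against 5335 for Nphs1. Whether the counting used strand is not given in the sources used here.

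Levels of different genes were compared as mean CPM per kilobase of merged exons. In Ctrl, Podxl was the most abundant member at 61.4 ± 8.35 (SD, n = 3), followed by Cd2ap at 10.47, Synpo at 7.38, Nphs1 at 6.03, Ptpro at 4.48, Wt1 at 1.91, Magi2 at 1.77 and Plce1 at 0.913. In PT-KO+I/R, Podxl was still first at 44.7 ± 3.96, and Cd2ap reached 31.4. Nphs1 stood at 1.47, Ptpro at 1.56 and Magi2 at 0.633, and Magi2 and Plce1, at 0.572, were the lowest as in Ctrl. All values from here on are CPM scaled by TMM over the 12 libraries, and fold changes come from the fit of each comparison.

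**Figure D1:**
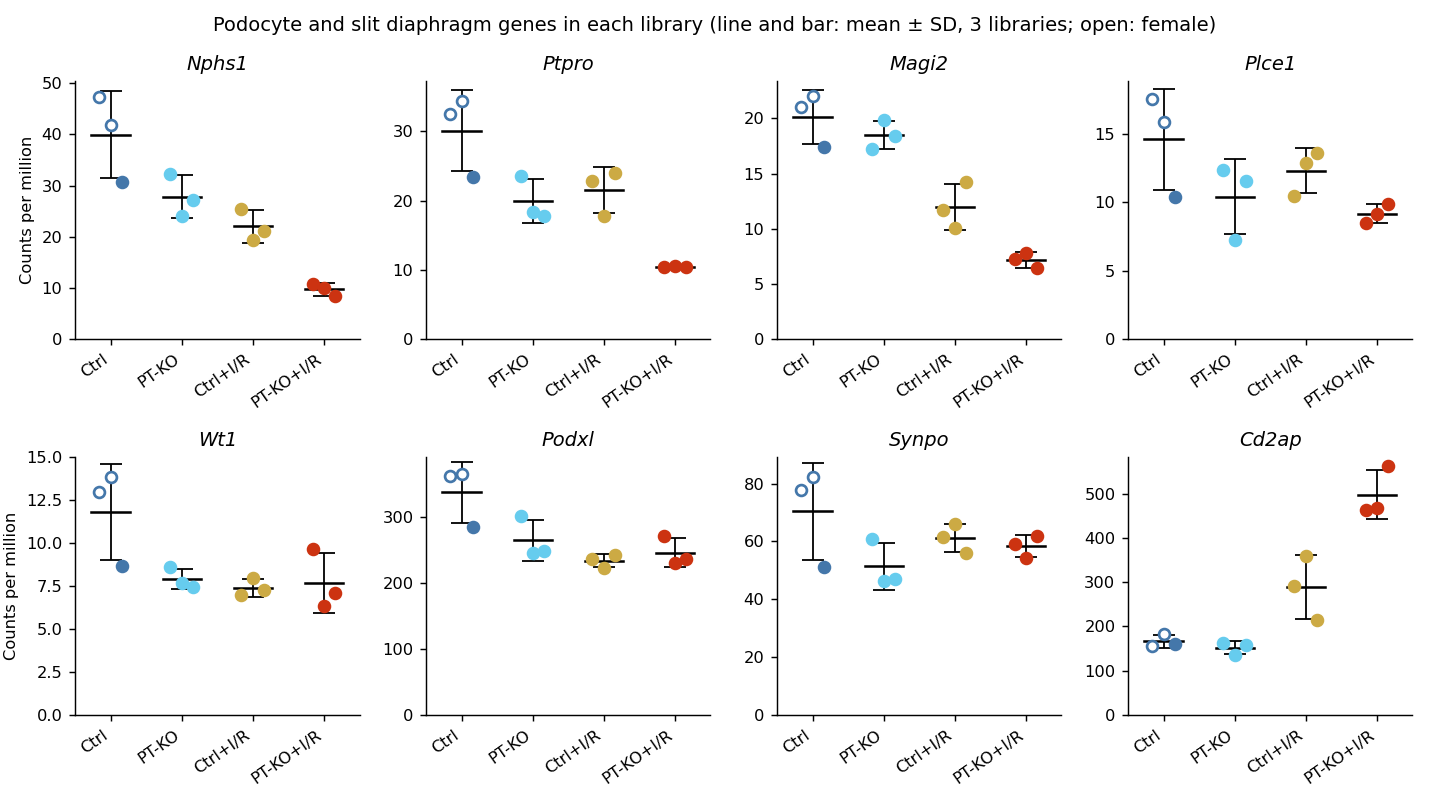
CPM of the 8 members in each library (points), with the mean and SD of 3 libraries per group, where open points are the 2 female Ctrl libraries. For Nphs1, Ptpro and Magi2 all PT-KO+I/R points lie below those of the other groups, for Cd2ap they lie above them, and for Wt1, Podxl and Synpo they overlap those of both other male groups.

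Kidneys labelled PT-KO+I/R were first compared with sham PT-KO kidneys, to see how the filter genes differ after I/R in kidneys labelled PT-KO. Nphs1, Magi2 and Ptpro were lower after I/R and Cd2ap was higher, while Wt1, Podxl, Synpo and Plce1 did not pass the test. By the quasi-likelihood test of edgeR with Benjamini-Hochberg adjustment, 3 of 8 members were called lower and 1 higher. The same test called 65.5% of all 15155 genes, 32.7% lower and 32.9% higher, so the number of members called was near that of genes at large. The median log2 fold change was -0.15 over the members and 0.01 over all genes tested.

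Nphs1 encodes nephrin, the main protein of the slit itself. The sham PT-KO libraries held 32.3, 24.0 and 27.1 CPM, and those after I/R held 10.8, 10.02 and 8.38 CPM. The highest I/R library lay below the lowest sham library. The log2 fold change was -1.52 ± 0.15 (SE), or 0.347-fold, with an adjusted p of 1.34e-05. In a mixed tissue such as this, fewer podocytes and less RNA per podocyte cannot be told apart.

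Magi2 encodes a scaffold protein that holds nephrin and other membrane proteins through its PDZ domains, and it is also known from synapses. Its levels were 17.2, 19.8 and 18.4 CPM without I/R, compared with 7.27, 7.83 and 6.45 CPM after it. The groups were apart, with a log2 fold change of -1.37 ± 0.14 and an adjusted p of 1.37e-05. Ptpro encodes a receptor tyrosine phosphatase of the podocyte surface, known as GLEPP1, and is also made in some leukocytes and neurons. It fell from 23.5, 18.4 and 17.8 CPM to 10.4, 10.6 and 10.4 CPM, with a log2 fold change of -0.93 ± 0.14 and an adjusted p of 2.49e-04. The 3 I/R libraries were nearly equal for Ptpro and none reached the sham range.

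Cd2ap, an adaptor that links nephrin to actin and to endocytosis, is made in many cell types, tubule cells among them. It rose from 161, 136 and 158 CPM to 464, 466 and 562 CPM. This was 3.26-fold (log2 1.71 ± 0.12, adjusted p 1.02e-06), the only member called higher. Nphs1, Magi2 and Ptpro stayed called lower, and Cd2ap higher, whichever of the 6 libraries was left out.

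The other members changed little between these groups. Podxl encodes podocalyxin, the charged sialomucin of the podocyte surface, which endothelium also makes. Sham kidneys held 300.4, 245 and 248 CPM of it and I/R kidneys 270.0, 229 and 236 CPM, with a log2 difference whose 95% interval ran from -0.36 to 0.13. Wt1, the transcription factor that marks mature podocytes, had 8.58, 7.70 and 7.42 CPM before and 9.67, 6.32 and 7.09 CPM after I/R, with an interval from -0.49 to 0.37. The groups overlapped for both genes. Synpo encodes synaptopodin, an actin-binding protein of foot processes. Its levels were 60.8, 46.1 and 47.1 CPM in the sham kidneys, and 59.1, 54.4 and 61.7 CPM in those after I/R, an interval from -0.08 to 0.44. Plce1, a phospholipase C in which recessive mutations cause nephrotic syndrome, was at 12.4, 7.27 and 11.6 CPM and at 8.47, 9.13 and 9.87 CPM, with the widest interval, from -0.65 to 0.27. None of these 4 intervals reaches a halving or a doubling.

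The second comparison between male groups set injured PT-KO kidneys beside injured Ctrl kidneys, which asks how injured kidneys of the 2 genotypes differ. The same 4 members passed the test in the same direction. Nphs1, Ptpro and Magi2 were lower in the kidneys labelled PT-KO+I/R and Cd2ap was higher. Of all 15281 genes tested, 46.9% were called, 24.4% lower and 22.5% higher, beside 3 and 1 of 8 members. The median log2 fold change of the members was -0.25, against 0.00 for all genes. Both comparisons share the PT-KO+I/R libraries, so they are not independent of each other.

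Nphs1 was at 25.5, 19.4 and 21.1 CPM in Ctrl+I/R, and thus above each of the 3 PT-KO+I/R libraries, with a log2 fold change of -1.19 ± 0.16 and an adjusted p of 0.00112. Ptpro was at 22.8, 17.9 and 24.0 CPM, and its log2 fold change was -1.05 ± 0.15 with an adjusted p of 0.0014. For both genes the 2 sets of libraries were apart and the call held without any 1 library.

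Magi2 was at 11.7, 10.1 and 14.2 CPM in Ctrl+I/R, lower than in PT-KO, and its log2 fold change to PT-KO+I/R was -0.74 ± 0.18 with an adjusted p of 0.0122. Cd2ap was at 292, 360 and 214 CPM and was 1.72-fold higher in PT-KO+I/R (log2 0.78 ± 0.19, adjusted p 0.0116). The groups were apart for both genes, but without PT-KO+I/R library 4 neither passed, with log2 fold changes of -0.66 and 0.69, and 2 members were then called.

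Plce1 had 10.4, 12.9 and 13.6 CPM in Ctrl+I/R, above all PT-KO+I/R libraries, but did not pass, with a log2 fold change of -0.43 ± 0.16 and an adjusted p of 0.0545. Wt1 was at 6.97, 7.99 and 7.27 CPM, Podxl at 236, 222 and 242 CPM and Synpo at 61.5, 65.95 and 56.0 CPM in Ctrl+I/R. All 3 overlapped PT-KO+I/R, with log2 fold changes of 0.04 ± 0.20 for Wt1, 0.06 ± 0.11 for Podxl and -0.07 ± 0.10 for Synpo. With total counts in place of TMM, which put the median of all genes at -0.21, the values of Wt1 and Podxl changed sign to -0.17 and -0.14, whereas the directions of the 4 called members did not change. Plce1 was then called lower as well, at -0.64.

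**Figure D2:**
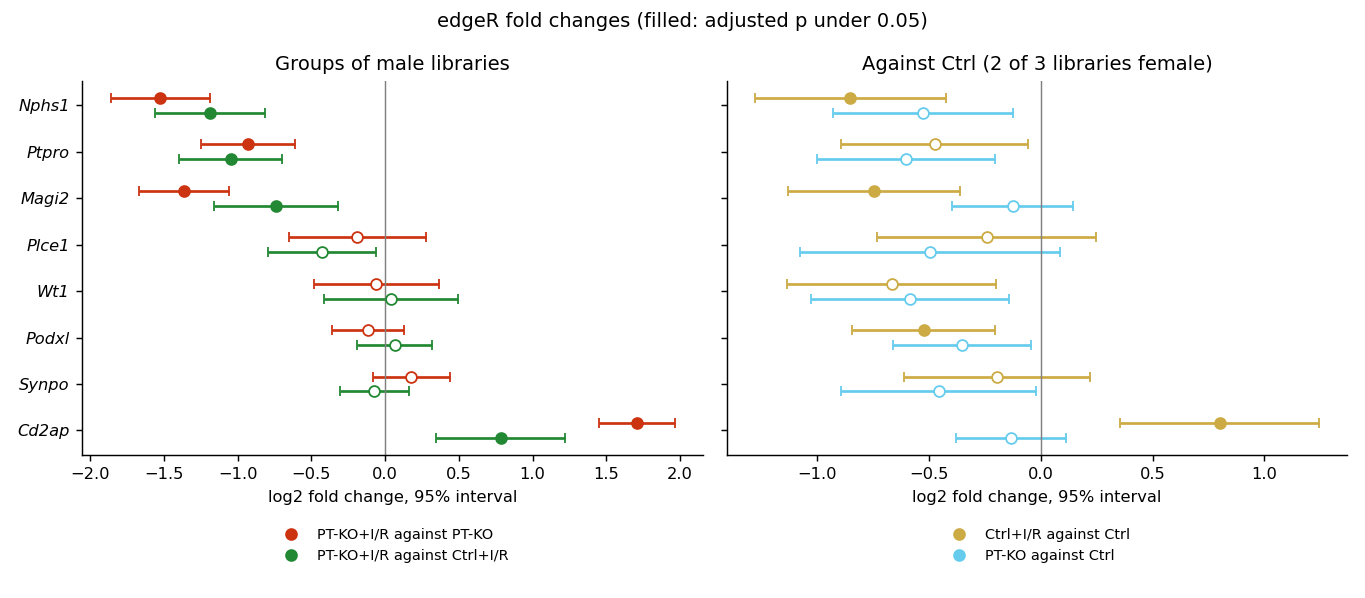
Log2 fold changes of the 8 members with 95% intervals (x axis) in the 2 comparisons between male groups (left) and the 2 comparisons with Ctrl (right), where filled points passed an adjusted p of 0.05. On the left Nphs1, Ptpro and Magi2 lie below 0 and Cd2ap above it in both comparisons, and no member was called for PT-KO against Ctrl on the right.

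The members thus did not move as 1 block, and this did not depend on scaling between libraries. Counts of each member were divided by those of Podxl, the member with the most counts per kilobase, in the same library. This ratio was chosen after the values had been seen and is given as a description. Per 100 counts of Podxl, Nphs1 had 10.8, 9.80 and 10.9 counts in the PT-KO libraries and 10.8, 8.73 and 8.74 in the Ctrl+I/R libraries, which overlapped. The PT-KO+I/R libraries, with 3.99, 4.37 and 3.54 counts, lay below both.

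Per 100 of Podxl, Ptpro had 7.504 ± 0.33 counts in PT-KO, 9.21 ± 1.02 in the injured Ctrl group and 4.30 ± 0.38 in the injured PT-KO group (SD, n = 3). In the same order Magi2 had 7.08 ± 1.21, 5.12 ± 0.69 and 2.95 ± 0.41. Wt1 had 2.999 ± 0.14, 3.19 ± 0.36 and 3.11 ± 0.42, so this transcription factor kept its proportion to Podxl, while Nphs1, Ptpro and Magi2 did not. Synpo had 19.4 ± 0.76, 26.3 ± 3.27 and 23.9 ± 2.1. Its PT-KO+I/R libraries lay above PT-KO and overlapped Ctrl+I/R. Plce1 had 3.92 ± 0.87, 5.29 ± 0.75 and 3.76 ± 0.55. Its PT-KO+I/R libraries lay below Ctrl+I/R and overlapped PT-KO. Cd2ap had 57.6 ± 5.46, 125 ± 36.7 and 204 ± 32.9 counts per 100 of Podxl. Its lowest PT-KO+I/R library, at 172, lay just above the highest Ctrl+I/R library, at 162.

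**Figure D3:**
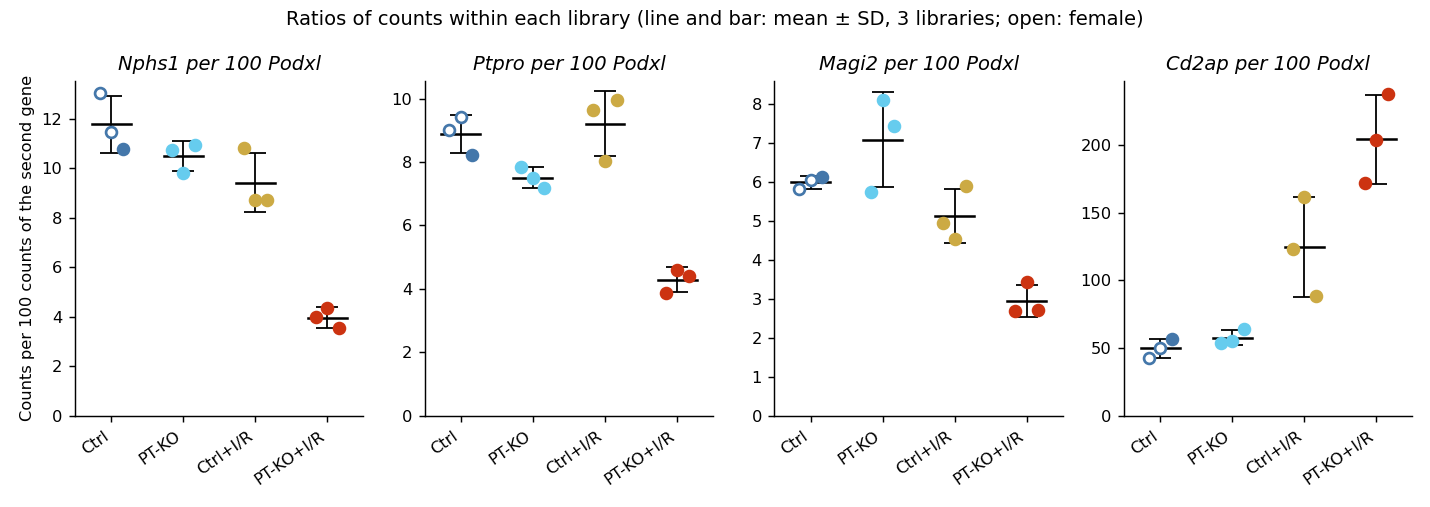
Counts of Nphs1, Ptpro, Magi2 and Cd2ap per 100 counts of Podxl in each library (points) with the mean and SD of 3 libraries, where open points are the female Ctrl libraries. The PT-KO+I/R points lie below all others in the first 3 panels and above all others in the panel for Cd2ap.

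Ctrl+I/R was compared with Ctrl to see the effect of I/R on kidneys with intact ALR. Nphs1, Magi2 and Podxl were called lower and Cd2ap higher, 4 of 8 members, where the test called 19.4% of all 15567 genes, 7.97% lower and 11.4% higher. The sex of the libraries moved with most of these differences. Nphs1 was at 47.2 and 41.9 CPM in the female Ctrl libraries and 30.6 CPM in the male one, against 19.4 to 25.5 CPM in Ctrl+I/R (log2 -0.85 ± 0.18, adjusted p 0.0237). Podxl was at 362 and 365 CPM in the female libraries, 284 CPM in the male one and 222 to 242 CPM in Ctrl+I/R (log2 -0.52 ± 0.14, adjusted p 0.0387). With total counts in place of TMM the call of Podxl was lost (log2 -0.42, adjusted p 0.0988), and DESeq2 called Wt1 lower as well (log2 -0.66, adjusted p 0.0315). For Nphs1 and Podxl the male Ctrl library was the lowest of the 3 and still lay above Ctrl+I/R. It is 1 library and matches no sample title, so its sex and its identity cannot be told apart here.

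Magi2 was at 21.0 and 22.0 CPM in the female and 17.4 CPM in the male Ctrl library, against 10.1 to 14.2 CPM in Ctrl+I/R (log2 -0.74 ± 0.16, adjusted p 0.0256). Cd2ap did not split by sex, with 155 and 182 CPM in the female and 160 CPM in the male Ctrl library, and was at 214 to 360 CPM in Ctrl+I/R (log2 0.80 ± 0.19, adjusted p 0.0306). With sex as a covariate in a fit to all 12 libraries, Cd2ap alone was called (log2 0.85, adjusted p 0.0482), while Magi2 stood at -0.54, Nphs1 at -0.48 and Podxl at -0.28. With the male libraries alone 0 members were called, but Ctrl then has 1 library, assumed to vary like those of the other groups, so this loss of calls shows nothing about sex. When each library was left out in turn, 0 to 5 were called. The call of Cd2ap was lost in 5 of these 6 fits, those of Podxl and Magi2 in 4 each, and that of Nphs1 in 3. Synpo and Plce1, which had log2 fold changes of -0.19 and -0.24, stood at 0.26 and 0.24 with the covariate.

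PT-KO against Ctrl asks whether the PT-KO label went with a change in the absence of I/R. By edgeR, 0 members were called, and 0.0% of 15291 genes, although 2573 genes (16.8%) had an unadjusted p under 0.05 and DESeq2 called 440 genes. At the unadjusted level, 5 members were lower, namely Nphs1, Wt1, Synpo, Podxl and Ptpro, where 9.31% of all genes were lower at that level, and DESeq2 also called 0 members. The male Ctrl library was near PT-KO for these genes. Wt1 was at 12.97 and 13.8 CPM in the female and 8.65 CPM in the male Ctrl library, beside 7.42 to 8.58 CPM in PT-KO. Ptpro was at 32.6 and 34.4 CPM in the female and 23.4 CPM in the male one, beside 17.8 to 23.5 CPM in PT-KO. Synpo was at 77.7 and 82.2 CPM in the female and 51.2 CPM in the male one, beside 46.1 to 60.8 CPM in PT-KO, and Plce1 at 17.5 and 15.9 CPM against 10.4 CPM and 7.27 to 12.4 CPM. The result depended on which Ctrl libraries were used: without Ctrl library 3, which leaves the female ones, these 5 members were called lower, among 1930 genes called in that fit, with log2 fold changes of -0.46 to -0.76. With sex as a covariate, the 8 values lay between -0.23 and 0.09. Sex and genotype cannot be told apart in this comparison, and its only male Ctrl library matches no sample title.

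The interaction compares the response to I/R between the genotypes over all 12 libraries. Cd2ap rose more in PT-KO kidneys than in Ctrl kidneys (log2 0.92 ± 0.24, adjusted p 0.0124) and Magi2 fell more (-0.61 ± 0.21, adjusted p 0.0439), 2 of 8 members, where 30.6% of 16168 genes were called, 14.3% higher and 16.4% lower. Nphs1 was at -0.66 ± 0.25 (adjusted p 0.0617) and Ptpro at -0.44 ± 0.23 (adjusted p 0.173). With sex as a covariate, Nphs1 (-1.04), Ptpro (-0.81) and Magi2 (-0.82) were called and Cd2ap was not (0.87, adjusted p 0.0529). The call of Magi2 was lost in 10 of the 12 fits without 1 library, and that of Cd2ap in none.

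Across the 12 libraries, pairs of members varied in different ways. These correlations of log2 CPM are descriptions, since the libraries share groups, sex and scaling. Nphs1 had a Pearson r of 0.954 with Ptpro and 0.936 with Magi2, and Ptpro had 0.864 with Magi2. Wt1 had an r of 0.928 with Podxl but 0.515 with Magi2, and Synpo had 0.071 with Magi2. Cd2ap ran against the first 3, with -0.974 for Magi2, -0.88 for Nphs1 and -0.782 for Ptpro. Genes most like the mean of the members over the 12 libraries were Prlr, Elovl2, Kdm5c, Cebpa, Atp13a4, Mgat4a, Fam193b, Clic6, Npnt and Zfp385b, with r from 0.925 to 0.962. Kdm5c is X-linked and known to be expressed from both X chromosomes in females. Prlr was at a mean of 288 CPM in Ctrl, the group with the female libraries. It was at 25.5 CPM in PT-KO, 36.0 CPM in Ctrl+I/R and 9.09 CPM in PT-KO+I/R. Of these 10 genes, Npnt is also known as a podocyte gene. Those most like Nphs1 alone were Tle2, Lyplal1, Abhd17c, Hao2 and Zfp467, with r from 0.981 to 0.984. All 15 were picked as the highest of many genes.

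Other podocyte genes were followed in a list of 27, of which 25 could be tested with PT-KO as the reference for PT-KO+I/R, and 26 with Ctrl+I/R as the reference. In the first comparison 14 fell and 5 rose, where 32.7% of all genes were called lower and 32.9% higher, with a median log2 fold change of -0.75 against 0.01 for all genes. In the second, 12 fell and 3 rose, where 24.4% of all genes were called lower and 22.5% higher, with a median of -0.58 against 0.00. The same shares of all genes stand behind the counts of each list that follows. Arhgap24, a Rac-inactivating protein of podocytes, had log2 fold changes of -2.02 and -1.53, the lowest in both. Crb2, a polarity protein of the slit diaphragm, had -1.77 and -1.48, and its second call held in 3 of 6 fits without 1 library. Clic5, which supports foot processes together with ezrin, had -1.39 in the second comparison. Arhgap24, Npnt and Clic5 are also expressed by tubule or endothelial cells.

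Robo2, a receptor that lies near nephrin, had -1.38 and -1.14, and the podocyte transcription factor Tcf21 had -1.34 and -0.95. Robo2, Tcf21, Lmx1b and Efnb1 were named after their values were seen. Lmx1b, another podocyte transcription factor, was not called in either comparison (-0.34 ± 0.35 and -0.21 ± 0.30). Of the genes that rose, Inf2, a formin that elongates actin, had log2 fold changes of 1.92 and 0.85, and Efnb1, the ligand ephrin-B1 of the slit diaphragm, had 1.23 and 0.92. Both are made in many cell types.

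**Figure D4:**
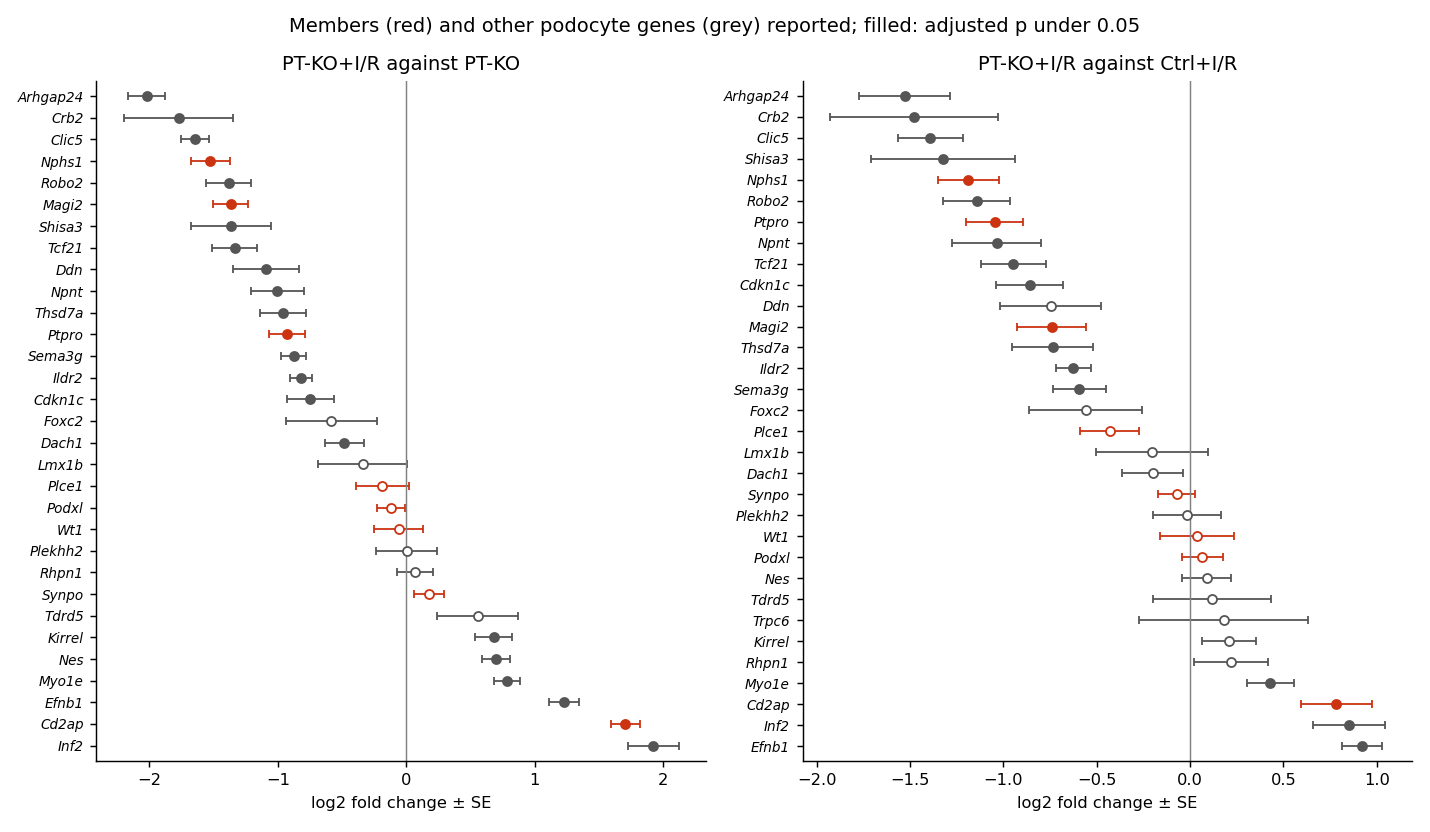
Log2 fold changes with SE of the 8 members (red) and the other podocyte genes reported here (grey), ordered from lowest at the top, with PT-KO (left) or Ctrl+I/R (right) as the reference for PT-KO+I/R, where filled points passed an adjusted p of 0.05. Arhgap24 and Crb2 are the lowest in both panels, Nphs1 is at -1.52 and -1.19, and Cd2ap, Inf2 and Efnb1 are at the high end of both.

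Of 20 slit diaphragm adaptors and actin regulators that many cells make, 13 rose and 3 fell over PT-KO (median 0.59), and 9 were higher and 5 lower than in Ctrl+I/R (median 0.30). Beside the 24.4% of all genes called lower there, 5 of 20 is near the share of genes at large. Myh9, the heavy chain of non-muscle myosin IIA, rose by 1.496 on the log2 scale over PT-KO, Arhgdia, an inhibitor of small GTPases of the actin cytoskeleton, by 1.27, and Ezr, the actin linker ezrin, by 1.36. Ezr and the GTPase Rac1 were higher than in Ctrl+I/R by 1.16 and 1.03. Sh3kbp1, the close relative of Cd2ap, moved the other way, with log2 fold changes of -0.83 and -1.46. With total counts in place of TMM, the second comparison held 4 higher and 6 lower genes of this list, and Ezr, Rac1 and Sh3kbp1 were still called.

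Of 13 genes in the basement membrane list, 6 were higher and 3 lower than in PT-KO, where 32.9% and 32.7% of all genes were, and 6 were higher and 4 lower than in Ctrl+I/R, where 22.5% and 24.4% were. The medians were 0.11 and 0.10, and total counts gave 4 higher and 6 lower in the second comparison. The chains of type IV collagen that podocytes add to the mature glomerular membrane were among those that fell. Col4a5 had log2 fold changes of -1.82 and -1.56, and Col4a3 of -1.64 and -0.75, and both are also known from distal tubules. Lama5 and Cd151, a laminin chain and an integrin partner that many epithelia make, were higher than in Ctrl+I/R by 1.01 and 0.84, and Nid1, a linker of laminin to collagen, was higher than in PT-KO by 1.62.

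Genes of other cell types moved as well, and their part in the members' differences was not tested. Of 10 endothelial genes, 5 rose and 3 fell against PT-KO, and 5 rose and 2 fell against Ctrl+I/R (2 and 2 with total counts), beside 32.9% and 32.7% of all genes in the first comparison and 22.5% and 24.4% in the second. Their summed levels were 671 to 685 CPM in PT-KO+I/R, above the 478 to 529 CPM of PT-KO and the 464 to 519 CPM of Ctrl+I/R. The receptor Tek fell (-1.54 and -1.28) and Plat rose (1.59 and 1.47). Of 7 mesangial and pericyte genes, 5 fell and 2 rose against PT-KO and 4 fell against Ctrl+I/R (7 with total counts), and their sum was 84.0 to 110 CPM in PT-KO+I/R, below the 125 to 154 CPM of PT-KO and the 152 to 156.5 CPM of Ctrl+I/R. Ptn, Itga8 and Cspg4 fell most, with Ptn at -2.85 and -2.95.

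Most tubule genes were lower than in PT-KO. All 11 proximal tubule genes and 8 of 9 distal nephron and collecting duct genes were called lower, with medians of -2.22 and -1.77. Against Ctrl+I/R, 5 proximal genes were lower and 1 higher, and 3 distal genes lower. The sum of the proximal genes was 22760 to 23630 CPM in PT-KO+I/R, below the 44740 to 56800 CPM of PT-KO and within the 15590 to 25360 CPM of Ctrl+I/R. Most of that sum was Kap, an androgen-regulated gene named after its values were seen, which was higher than in Ctrl+I/R (means of 14960 and 9995 CPM). With total counts Kap was no longer called (log2 0.37). Slc22a6, also named after its values were seen, was then called lower (-0.67). The transport genes Slc5a12, Slc13a3 and Cubn lay far below Ctrl+I/R, with log2 fold changes of -3.56, -2.77 and -2.04. The 4 tubular injury genes summed to 4863 to 6410 CPM in PT-KO+I/R, above the 10.3 to 19.9 CPM of PT-KO and the 584 to 2704 CPM of Ctrl+I/R. Ptpro is known from leukocytes too: 8 immune genes summed to 49.1 to 61.0 CPM in PT-KO+I/R, above the 27.9 to 35.02 CPM of PT-KO and below the 96.6 to 180.2 CPM of Ctrl+I/R. Of these, 3 rose and 3 fell against PT-KO, and 2 rose and 3 fell against Ctrl+I/R. The leukocyte gene Ptprc and the macrophage genes Adgre1 and Lyz2 were lower than in both groups, as Ptpro was. Against PT-KO they fell by 1.16, 3.14 and 1.36 on the log2 scale, and against Ctrl+I/R by 2.32, 4.37 and 3.81. Cd68, a lysosomal protein of macrophages, and S100a8, a neutrophil protein, made up most of the sum in PT-KO+I/R, at means of 26.2 and 15.4 CPM, and both were higher than in the other male groups. The call of S100a8 against Ctrl+I/R held in 2 of 6 fits without 1 library and was lost with total counts. The part of leukocytes in the difference of Ptpro was not tested.

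**Figure D5:**
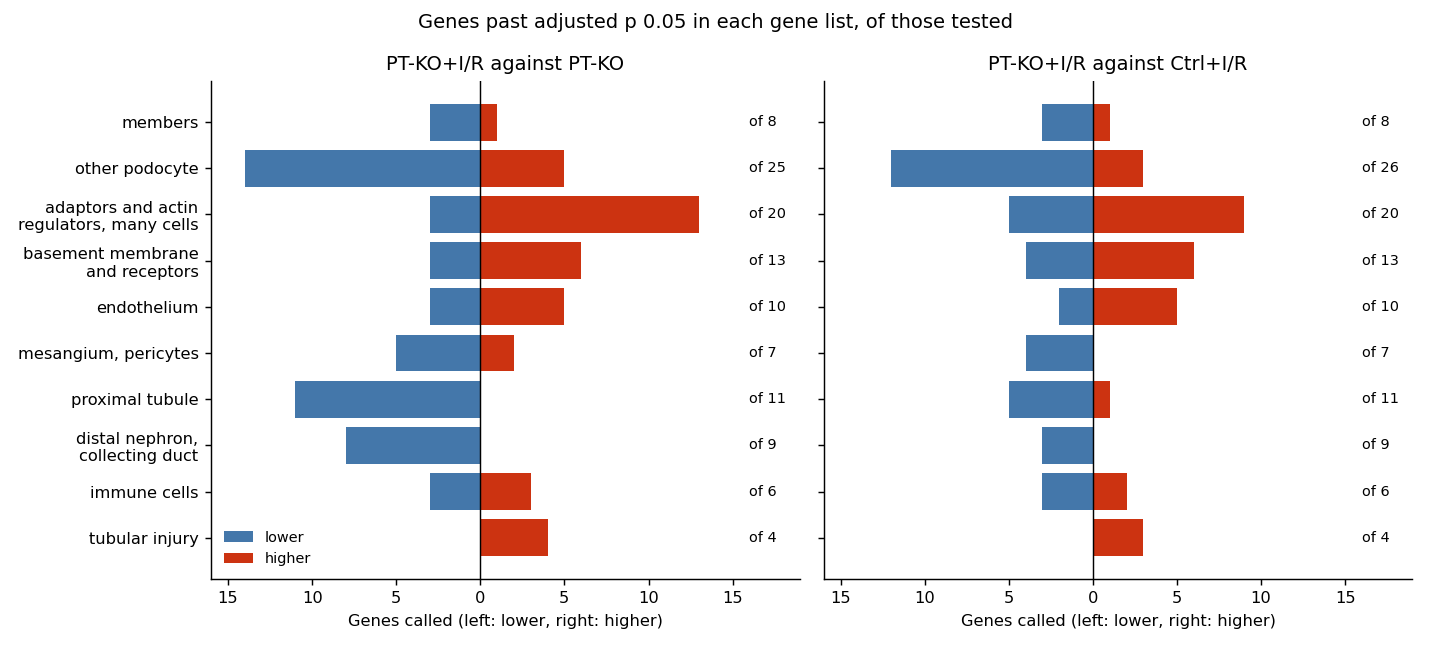
Number of genes called lower (left of 0) and higher (right of 0) at an adjusted p under 0.05 in the members and in each list, with the number tested at the right edge, for both comparisons between male groups. The other podocyte genes have 14 and 12 calls lower, and the adaptors and actin regulators 13 and 9 calls higher.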

How the data were processed

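Kidney cortex RNA for 12 libraries was extracted with TRIzol and sequenced on an Illumina platform. The authors deposited 1 table of raw read counts per Ensembl gene, neither normalized nor filtered; the submitters' processing notes name HISAT2 2.0.4 and mm10, and the count program, annotation and strand setting are not given in the sources used here. Groups follow the sample labels. The column of Ctrl library 3 matches no sample title and was placed by its group name. Nothing says how mice were assigned to libraries beyond this, so p-values measure the spread between these libraries.

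Using edgeR 4.0.16 (R 4.3.3), low counts were removed by filterByExpr, TMM factors computed and quasi-likelihood tests run, with 6 libraries per comparison and 12 for the interaction. P-values were adjusted over all genes tested by Benjamini-Hochberg. A gene is called at an adjusted p under 0.05. Interval bounds are 95% t intervals of the fit. Correlations used log2 CPM with a prior count of 2. The alternatives were DESeq2 1.42.0, total counts, no filter, 1 fit to all libraries, replicate blocks, sex as a covariate and leaving out each library; the fit to male libraries and the count ratios were chosen after seeing the data. The steps were tested on simulated data.

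The members and gene lists were chosen with earlier results of these data known. All members are named; from each list, at most 3 called genes with the largest absolute change per comparison, and otherwise those said to be named after their values were seen. Promoters come from RefSeq (GRCm38.p6); Wt1, Podxl and Synpo are named only. Some genes of the lists are counted but not reported singly here.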

Additional observations from a re-analysis of the deposited data

Results flagged for a closer look

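Of the 8 members, 2 passed the interaction test over all 12 libraries, a share below the 30.6% of all genes that passed it. The log2 difference between the responses was 0.92 for Cd2ap and -0.61 for Magi2, as given above, and the call of Magi2 was lost in 10 of the 12 fits without 1 library. The Ctrl arm of this test holds the 2 female libraries, and with the 10 male libraries alone the values were 0.86 and -0.83 (adjusted p 0.0754 and 0.0611), where Ctrl has 1 library, assumed to vary like the others.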

How the results depend on the processing

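Between the male groups, the calls of Nphs1, Ptpro, Magi2 and Cd2ap kept their direction and their side of the threshold in most alternatives. These were DESeq2, total counts, no low-count filter and 1 fit to all 12 libraries. Sex as a covariate kept them too, but all female libraries are in Ctrl, so it cannot test sex between these groups. With the replicate block the calls against Ctrl+I/R were lost, as given below. Without 1 library, 4 to 5 members and 9111 to 10260 genes were called for PT-KO+I/R with PT-KO as the reference. With Ctrl+I/R as the reference they were 2 to 5 members and 4918 to 7509 genes, the fewest members without PT-KO+I/R library 4. The near-zero value of Wt1 ranged over -0.24 to 0.080 and over -0.14 to 0.18, and total counts gave -0.17 for Wt1 and -0.14 for Podxl in the second comparison.

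Results that involve Ctrl depended on the libraries. For Ctrl+I/R against Ctrl (4 members, 3019 genes), 1 fit to all libraries called 4938 genes. Sex as a covariate called 1 member in 12 libraries, and in 6 libraries 0 members and 1 gene, and the male libraries alone, chosen after seeing the data and with a lone Ctrl library assumed to vary like the other groups, 0 members and 1219 genes. Synpo and Plce1 then changed sign, to 0.26 and 0.24, to 0.25 and 0.24, and to 0.24 and 0.22. Without 1 library, 0 to 5 members and 379 to 4061 genes were called. Leaving out Ctrl library 1 gave 379 genes and Ctrl library 2 gave 413, while 833 were called when Ctrl+I/R library 1 was removed and 1635 when library 2 of that group was. For PT-KO against Ctrl (0 members, 0 genes), DESeq2 called 440 genes, total counts 1, no low-count filter 388 and sex in 6 libraries 4. Without 1 library, 0 to 5 members and 0 to 1930 genes were called, the highest without Ctrl library 3. With sex as a covariate Synpo turned to 0.0032 in 12 and 0.0029 in 6 libraries and Magi2 to 0.087 in both, and to 0.076 in the male libraries.

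For the interaction (2 members, 4953 genes), sex as a covariate called 3 members and 3233 genes and the male libraries alone 1 member and 2539 genes. Synpo stood at -0.071 and -0.075 and Plce1 at -0.42 in both, and Plce1 at -0.016 with total counts. Without 1 library, 1 to 4 members and 3622 to 5509 genes were called, and Plce1 ran from -0.14 to 0.26. The 4 members called without Ctrl library 3 were all higher. Total counts gave 2346 higher and 766 lower genes for Ctrl+I/R against Ctrl (1778 and 1241 with TMM), 1978 and 5080 between injured genotypes (3444 and 3725), and 1591 and 2997 for the interaction (2305 and 2648). The causes were not tested.

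Replicate numbers gave no clear sign of pairing: over 12 pairs of libraries with the same number, deviations from group means correlated at -0.188 to 0.184, with 1 pair over 0.1. With 3 libraries per group these deviations depend on each other, so they cannot exclude pairing. With the replicate block, 0 members and 1683 genes were called for PT-KO+I/R with Ctrl+I/R as the reference, where the groups share 2 numbers and fewer degrees of freedom remain, 5 members and 1378 genes for PT-KO against Ctrl, and 3215 genes for the interaction. Against PT-KO, the block gave 0.13 for Wt1 and 0.032 for Podxl.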
